A study of Mus musculus with 8 samples.

Results

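Hypoxia targets and glycolytic enzymes are 43 named genes, taken by symbol from arrays on which 27999 genes could be tested. They were split by role into 7 genes of oxygen sensing, 15 other targets of the hypoxia-inducible factors (HIFs), 2 glucose transporters and 19 glycolytic enzymes. All 43 had a probe, with 94 probes in all, and 42 passed the filter on dim signals. The exception was Car12, a membrane-bound carbonic anhydrase whose probe was not well above background on any of the 8 arrays. Each gene was read from its brightest probe, and all 42 were well above background on all 8 arrays except Adm, which was so on 3 of 4 MHCII-high and 4 of 4 MHCII-low arrays.

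The study profiled macrophages sorted by flow cytometry from pancreas tumours of mice into 4 MHCII-high and 4 MHCII-low samples, with 1 single-colour array each. MHCII-high cells carry much MHC class II, the surface complex that shows peptides to CD4 T cells, and MHCII-low cells carry little. Both groups came from female FvBn mice of 8 to 10 weeks into which tumours had been implanted, with the genotype given as not provided, and both were sorted straight into lysis buffer, amplified with the Sigma WTA2 kit and labelled chemically with Cy5. The series design also names normal pancreas and KPC, FLT3-CRE/LSL-YFP and wild-type mice, without placing the 8 samples among them, and the labels give neither which tumour cells were implanted nor any sort gate other than MHCII. The titles number the 4 samples of either group 20435, 20436, 20439 and 20442. What the numbers mark is not stated, and no label calls the replicates separate animals, so the p-values weigh a difference against a spread that may be technical.

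Cells sense oxygen through enzymes that hydroxylate the HIF alpha subunits. In normal oxygen the prolyl hydroxylases of the Egln family mark these subunits, the Vhl ligase recognises the mark, and the subunits are degraded. In low oxygen the alpha subunits pair with Arnt and raise the transcription of genes that limit respiration, remodel collagen, recycle mitochondria and take up and break down glucose. The HIF alpha proteins are regulated largely after translation, so the mRNA of Hif1a is not a measure of HIF-1 activity. In macrophages glycolysis also rises with inflammatory activation in normal oxygen.

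Of the macrophage markers Adgre1, Csf1r, Cd68, Mertk, Fcgr1, Cd14, Lyz2, C1qa and Itgam, all 9 were well above background on all 8 arrays, and Adgre1 (F4/80) was lower in MHCII-high cells by 1.69 on the log2 scale (limma adjusted p = 0.00438). Of the 9 changes 7 were negative and 2 positive, with a median log2 change of -0.31, and 1 passed. For 3 of the 9 all MHCII-high arrays lay below all MHCII-low arrays, against 6.85% of all genes. The summed signal of these 9 genes, in units of each array's 75th percentile, was 182 to 242 on MHCII-high arrays and 239 to 311 on MHCII-low arrays. Of 10 dendritic cell markers, 9 were higher in MHCII-high and 0 lower, with a median log2 change of 3.23. Their summed signal was 18.6 to 33.2 on MHCII-high arrays and 2.97 to 5.22 on MHCII-low arrays. Of 6 monocyte markers, Plac8 was higher by 1.75 and F13a1 lower at -2.57. The summed signal of the 6 was 17.4 to 28.0 on MHCII-high arrays and 40.6 to 45.4 on MHCII-low arrays, which do not overlap. Their mean log2 signal did overlap, at 1.25 to 1.71 in MHCII-high and 1.46 to 1.74 in MHCII-low. Of the 6 changes 4 were positive and 2 negative, with a median of 0.30, so the sum does not stand for most of the list. All 8 tested erythroid markers were negative, with a median of -2.35, but 0 passed in limma and 2 had an unadjusted p under 0.05. Their sums ran over 1.90 to 21.3 in MHCII-high and 1.53 to 101 in MHCII-low. The part of these markers in the results below was not tested. In sorted bulk samples, fewer cells of a type and less RNA per cell cannot be told apart. Arrays had 38756 to 42087 probes well above background (68.5% to 74.4% of all), and their number limits the precision.

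A part of the oxygen-sensing and HIF target genes was lower in MHCII-high macrophages, while 18 of 19 enzymes of glycolysis did not pass the threshold. Of the 42 genes 7 passed, against 4.94% of all genes. Of the 21 oxygen-sensing genes and other HIF targets tested, 6 were lower in MHCII-high and 0 higher, against 2.25% of all genes lower and 2.7% higher at a Benjamini-Hochberg adjusted p of 0.05. The 6 were Epas1, Egln3, P4ha2, Ero1a, Bnip3 and Ankrd37. Of the 19 glycolytic enzymes, Pfkp was higher and 0 were lower, and neither glucose transporter passed. At an unadjusted p under 0.05, limma had 11 of the 21 genes lower and 0 higher, and of the enzymes 5 lower and 2 higher, against 8.91% of all genes lower and 10.7% higher. The median log2 change, MHCII-high minus MHCII-low, was -0.22 in oxygen sensing, -0.49 in the other HIF targets, -0.28 in the glucose transporters and -0.18 in the glycolytic enzymes, beside 0.01 over all genes. The oxygen-sensing median was -0.13 without MHCII-high 20442, -0.14 without MHCII-low 20435, -0.34 without MHCII-low 20436 and -0.10 with the mean of all probes of a gene. The transporter median was -0.42 without MHCII-high 20436, -0.53 without MHCII-low 20435, -0.15 without MHCII-low 20436, -0.17 without MHCII-low 20442 and -0.18 without MHCII-high 20442. The 4 arrays of a group lay wholly below the 4 of the other, with MHCII-high the lower, for 2 of 7, 9 of 14, 1 of 2 and 4 of 19 genes of these roles in that order, against 6.85% of all genes. MHCII-high was the higher without overlap for 2 of 19 enzymes and for 0 of the other 23 genes, against 7.57% of all genes.

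**Figure D1:**
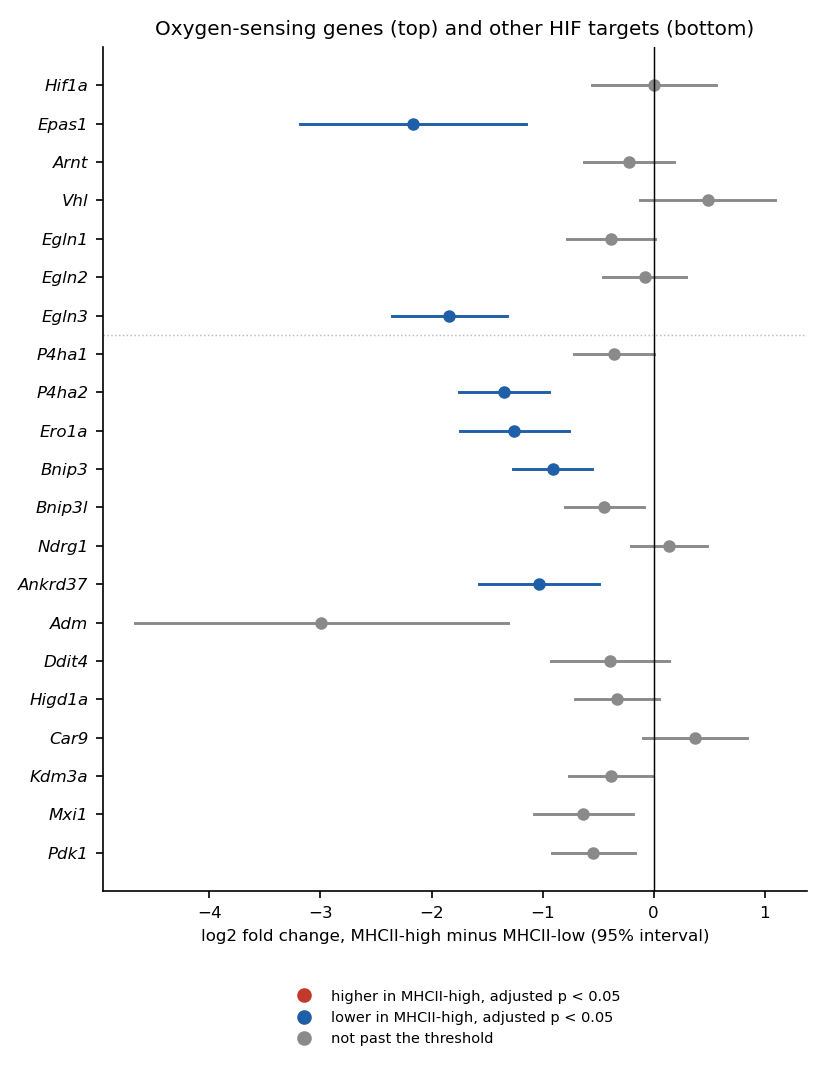
Log2 fold change, MHCII-high minus MHCII-low, of the 7 oxygen-sensing genes (above the dotted line) and 14 other HIF targets (below it), as points with 95% intervals from limma on 4 arrays a group. The 6 genes in blue passed an adjusted p of 0.05, and Adm, at -2.99, has the widest interval.

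All signals of single genes below are log2 values relative to the 75th percentile of the array, so 0 stands for that percentile, and they are listed for label numbers 20435, 20436, 20439 and 20442 within each group. Folds and adjusted p-values come from limma, adjusted over all 27999 genes, and intervals are 95% intervals from its moderated error. Levels of different genes are not compared, since each comes from its own probe.

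Among the oxygen sensors, 1 of the 2 HIF alpha genes passed. Epas1, which encodes HIF-2 alpha, had signals of 0.69, 1.05, -0.09 and -1.22 on MHCII-high arrays, against 2.31, 2.09, 2.49 and 2.21 on MHCII-low arrays. The groups did not overlap, and the MHCII-high arrays spread over a far wider range, with 20442 the lowest. Epas1 was 4.50-fold lower in MHCII-high (2.22 to 9.09, log2 -2.17 ± 0.44 SE, adjusted p = 0.0314), by a probe on chromosome 17 of mm9 at 87232615 to 87232674. Hif1a, which encodes HIF-1 alpha, had signals of 2.53, 2.51, 1.70 and 2.04 in MHCII-high cells, against 2.19, 1.84, 2.61 and 2.12 in MHCII-low cells. These values interleave, and the log2 change of 0.00 has an interval of -0.55 to 0.56 (adjusted p = 0.994). The other 2 Hif1a probes gave 0.54 and 2.43, and the mean of all 3 gave 0.99 (adjusted p = 0.0457), so for this gene the call depends on the probe. The signal of Epas1 minus that of Hif1a, taken within each array, averaged -2.09 ± 0.80 in MHCII-high and 0.09 ± 0.16 in MHCII-low (SD, n = 4 each, exact permutation p = 0.0286, the smallest that 4 against 4 allows, and 0.0524 adjusted over 11 such pairs).

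Arnt, the shared partner of both alpha subunits, had signals of 0.74, 0.58, 0.69 and 0.32 in MHCII-high cells, against 1.05, 0.45, 0.76 and 0.95 in MHCII-low cells, which overlap (log2 -0.22, -0.63 to 0.19, adjusted p = 0.55). A further Arnt probe gave 0.86. Vhl, the substrate-binding part of the ligase that removes hydroxylated HIF alpha, had signals of 0.91, 0.50, 0.76 and 0.08 in MHCII-high cells, against 0.35, -0.23, 0.54 and -0.37 in MHCII-low cells. It overlapped as well, with a log2 change of 0.49 (-0.12 to 1.09, adjusted p = 0.362).

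Of the 3 prolyl hydroxylases, Egln3 passed. Egln3 (PHD3), which is itself strongly induced by HIF, had signals of 0.28, 0.23, -0.14 and -0.63 in MHCII-high cells, against 2.03, 1.64, 1.86 and 1.58 in MHCII-low cells. Every MHCII-high array lay more than 1 log2 unit below every MHCII-low array. Egln3 was 3.58-fold lower in MHCII-high (2.49 to 5.13, log2 -1.84 ± 0.23 SE, adjusted p = 0.00522), by a probe on chromosome 12 of mm9 at 55280953 to 55281012. Egln1 (PHD2), the main oxygen sensor of most cells, had signals of 2.75, 2.48, 2.31 and 2.05 in MHCII-high cells, against 2.91, 2.69, 2.82 and 2.70 in MHCII-low cells. Its groups touched through the array MHCII-high 20435, and its log2 change of -0.38 (-0.78 to 0.01) did not pass (adjusted p = 0.269). Egln2 (PHD1), which is not a HIF target, had signals of 3.99, 3.96, 3.66 and 3.98 in MHCII-high cells, against 4.10, 3.70, 3.89 and 4.21 in MHCII-low cells. The groups overlapped and the log2 change was -0.08 (-0.45 to 0.30, adjusted p = 0.835). Egln3 minus Egln1 within arrays averaged -2.46 ± 0.18 in MHCII-high and -1.0 ± 0.10 in MHCII-low (SD, n = 4 each, exact permutation p = 0.0286).

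**Figure D2:**
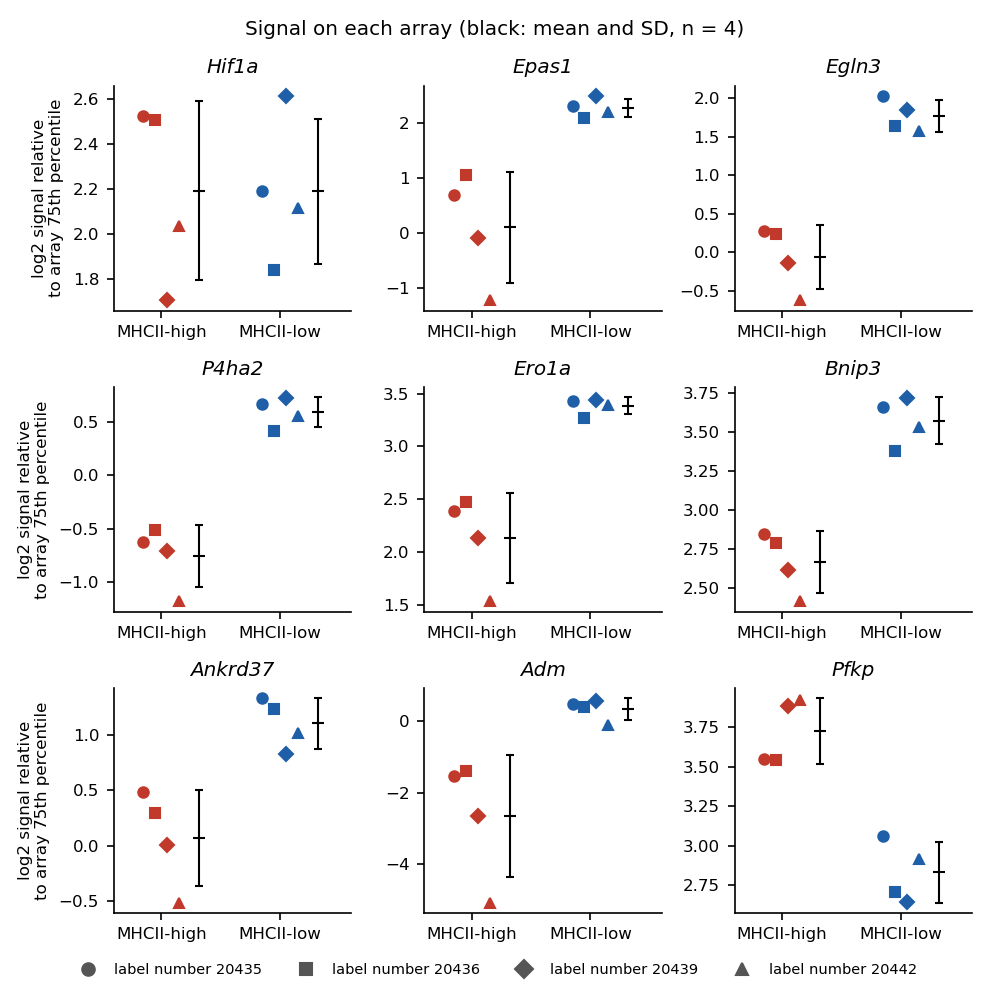
Log2 signal relative to the 75th percentile of the array for Hif1a, the 6 genes lower in MHCII-high, Adm and Pfkp, 1 panel a gene with its own axis. Each symbol is an array, its shape the label number, and black marks the mean and SD of 4 arrays. MHCII-high 20442 is the lowest array of its group for Epas1, Egln3, P4ha2, Ero1a, Bnip3, Ankrd37 and Adm.

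Of the 14 other HIF targets tested, P4ha2, Ero1a, Bnip3 and Ankrd37 passed. P4ha2, a collagen prolyl 4-hydroxylase subunit, had signals of -0.62, -0.51, -0.70 and -1.18 in MHCII-high cells, against 0.67, 0.41, 0.72 and 0.56 in MHCII-low cells. The groups were apart and each was tight. P4ha2 was 2.54-fold lower in MHCII-high (1.92 to 3.37, log2 -1.34 ± 0.18 SE, adjusted p = 0.00655), by a probe on chromosome 11 of mm9 at 53945032 to 53945091. A second, dimmer P4ha2 probe gave 0.12, and with the mean of both probes the change was -0.61 and the call was lost (adjusted p = 0.12). P4ha1, which encodes the other common alpha subunit of that enzyme, was at -0.35 (-0.72 to 0.01, adjusted p = 0.263). A second, dimmer P4ha1 probe gave -0.70, lower in MHCII-high without overlap. P4ha2 minus P4ha1 within arrays differed by -0.99 between the groups (exact permutation p = 0.0286), but by -0.09 with the mean of all probes of a gene (exact permutation p = 0.8).

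Ero1a, the oxidase that feeds disulfide bond formation in the endoplasmic reticulum and appears in the files under its older name Ero1l, had signals of 2.39, 2.47, 2.13 and 1.53 in MHCII-high cells, against 3.43, 3.27, 3.44 and 3.40 in MHCII-low cells. The MHCII-low arrays agreed closely, with an SD of 0.08, and the MHCII-high arrays lay below them with an SD of 0.42. Ero1a was 2.38-fold lower in MHCII-high (1.70 to 3.35, adjusted p = 0.0166), by a probe on chromosome 14 of mm9 at 45902895 to 45902954. Bnip3, a mitophagy receptor, had signals of 2.85, 2.79, 2.61 and 2.41 in MHCII-high cells, against 3.66, 3.38, 3.72 and 3.53 in MHCII-low cells. The groups did not overlap, and Bnip3 was 1.88-fold lower in MHCII-high (1.47 to 2.40, adjusted p = 0.0164), by a probe on chromosome 7 of mm9 at 146082760 to 146082819. Its relative Bnip3l (Nix), also a mitophagy receptor, had signals of 3.82, 3.63, 3.49 and 3.63 in MHCII-high cells, against 4.39, 3.98, 3.89 and 4.08 in MHCII-low cells. These did not overlap either, but the change of -0.44 (-0.80 to -0.09) did not pass (adjusted p = 0.159), while the mean of its 2 probes, -0.67, did (adjusted p = 0.0416). Bnip3l minus Bnip3 within arrays differed by 0.47 between the groups (exact permutation p = 0.0286), and by 0.24 with the mean of all probes of a gene (exact permutation p = 0.0857).

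Ankrd37, an ankyrin repeat protein known as a HIF-1 target, had signals of 0.49, 0.29, 0.01 and -0.51 in MHCII-high cells, against 1.32, 1.23, 0.82 and 1.02 in MHCII-low cells. The groups did not overlap, and it was 2.04-fold lower in MHCII-high (1.41 to 2.97, adjusted p = 0.0455), by a probe on chromosome 8 of mm9 at 47082404 to 47082463, and its adjusted p was the closest to the threshold among the 7 called genes. Adm encodes adrenomedullin, a vasodilator peptide, and its signals were -1.54, -1.39, -2.66 and -5.06 in MHCII-high cells, against 0.48, 0.39, 0.55 and -0.10 in MHCII-low cells. No array overlapped, but the array MHCII-high 20442 was not well above background and the SD in MHCII-high was 1.70. The log2 change of -2.99 (-4.67 to -1.31) missed the threshold (adjusted p = 0.0584), and without that array it was -2.19 and passed (adjusted p = 0.023). With normexp background correction it was -2.16 and passed too (adjusted p = 0.00241).

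Mxi1, a MAX-binding repressor that opposes MYC, had signals of 0.51, 0.49, 0.21 and -0.04 in MHCII-high cells, against 1.23, 0.63, 1.08 and 0.76 in MHCII-low cells. Its groups did not overlap, but the change of -0.63 did not pass (adjusted p = 0.116), and a second probe gave 0.44. Pdk1, the kinase that shuts pyruvate out of the mitochondrial cycle, had signals of 1.15, 1.21, 1.13 and 0.82 in MHCII-high cells, against 1.94, 1.48, 1.47 and 1.58 in MHCII-low cells. It did not overlap and did not pass (log2 -0.54, -0.92 to -0.17, adjusted p = 0.107). Of its 5 probes 4 lay at -0.59 to -0.53, and the dimmest gave 0.91. The remaining targets were smaller in size. Ddit4, an inhibitor of mTORC1, was at -0.39, the histone demethylase Kdm3a at -0.38, the mitochondrial protein Higd1a at -0.33, Ndrg1 at 0.14 and the carbonic anhydrase Car9, a classic marker of hypoxic tumour cells, at 0.38. None of these 5 passed, and only Kdm3a had groups that did not overlap.

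Which arrays were low was shared among these genes. MHCII-high 20442 was the lowest array of its group for 16 of the 21 oxygen-sensing genes and other HIF targets, where 24.9% of all genes had it lowest, and MHCII-high 20435 was the highest for 14 of the 21. The mean log2 signal of the 21 genes was 1.41, 1.34, 1.12 and 0.71 on MHCII-high arrays, against 1.93, 1.65, 1.90 and 1.82 on MHCII-low arrays. All 4 MHCII-high arrays thus lay below all 4 MHCII-low arrays. For the dendritic cell markers the array means were -0.20, 0.74, 0.99 and 1.23 in MHCII-high, against -2.84, -2.12, -2.14 and -2.45 in MHCII-low. Within MHCII-high the array with the highest HIF mean had the lowest dendritic mean and the reverse, over 4 arrays. The part of dendritic cell RNA in the lower HIF means was not tested. Fibroblast markers, another source of collagen hydroxylases, ran over summed signals of 8.13 to 58.8 in MHCII-high and 26.0 to 68.7 in MHCII-low, and 0 of 7 passed in limma, with 1 at an unadjusted p under 0.05. All 7 changes were negative, with a median log2 change of -0.93, and at each label number the sum was lower in MHCII-high: 8.13, 38.5, 58.8 and 29.3, against 26.0, 52.4, 68.7 and 61.2 in MHCII-low. The part of fibroblast RNA in these results was not tested. Endothelial markers, of cells that express Epas1, summed to 1.16 to 1.72 in MHCII-high and 1.28 to 1.82 in MHCII-low, which overlap. Of the 4 tested, Cldn5 was higher in MHCII-high, and the other 3 changes were negative and did not pass, with a median of -0.27 over the 4. Their array means were low, at -3.04 to -2.42 in MHCII-high and -3.15 to -2.50 in MHCII-low. The part of endothelial RNA in the Epas1 result was not tested. By label number, 14 of the 21 genes were lower in MHCII-high in 4 of 4 numbers, beside 4149 of all 27999. For 11 of the 14, among them Epas1, Egln3, P4ha2, Ero1a, Bnip3, Ankrd37 and Adm, the groups did not overlap. Any matching of their arrays gives 4 of 4, so the numbers add no support for these 11.

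**Figure D3:**
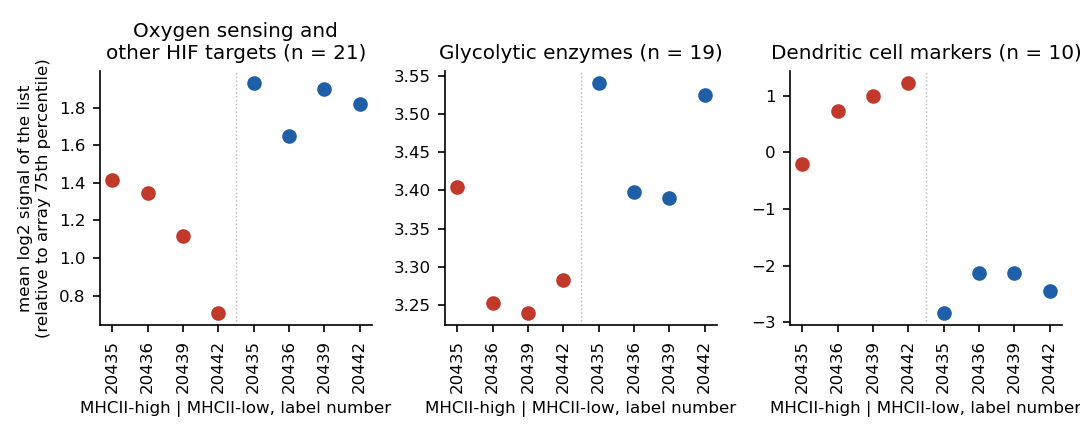
Mean log2 signal on each array, relative to the array's 75th percentile, of the 21 oxygen-sensing genes and other HIF targets, the 19 glycolytic enzymes and the 10 dendritic cell markers. MHCII-high arrays are red and MHCII-low arrays blue, labelled by number, and each panel has its own axis. The HIF means of MHCII-high, 0.71 to 1.41, lie below those of MHCII-low, 1.65 to 1.93, while the enzyme means differ by less.

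Egln3 and P4ha2 held their calls in all 8 fits that left out 1 array (adjusted p up to 0.0239 and 0.027) and with slide row as a block (0.0277 and 0.0364). Of the MHCII-high arrays 1 lay in row 1 of the slide and 3 in row 2, and of the MHCII-low arrays 3 and 1. With that block Epas1 (adjusted p = 0.123), Ero1a (0.0788), Bnip3 (0.0776) and Ankrd37 (0.162) lost theirs, although within row 1 and row 2 the changes were -1.25 and -2.42 for Epas1, -0.91 and -1.38 for Ero1a, -0.80 and -0.91 for Bnip3, -0.83 and -1.02 for Ankrd37, -1.61 and -1.74 for Egln3, and -1.12 and -1.39 for P4ha2. Within a row 1 group is a single array, so these carry no test. Ero1a and Bnip3 lost the call without MHCII-low 20435 (0.0509 and 0.0537) or MHCII-high 20439 (0.0554 and 0.0594). Epas1 lost it without MHCII-high 20439 (0.0911) or any MHCII-low array (0.0682 to 0.082). Ankrd37 kept it only without MHCII-high 20435 (0.0396), with adjusted p of 0.0694 to 0.122 in the other 7 fits. Without MHCII-low 20435 or MHCII-high 20439, 2 of the 21 genes passed, and 4 did without any 1 of the other MHCII-low arrays.

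HIF binds a short core, ACGTG or GCGTG, so the promoters of 6 of the 7 called genes are shown for where these letters fall, and Epas1 had no window in the table. Both were searched on both strands, where the other strand reads CACGT for the first and CACGC for the second, in RefSeq promoter windows on GRCm38.p6. The windows were set at 250 bases before to 50 after each gene's start, but no stretch runs past position -1. The stretches and their matches given here thus lie in the 250 bases before the start. A CACGTG palindrome, which is also the E-box of other factors, counts as 2 overlapping matches. Stretches below run 5′ to 3′ along the gene, with cores in capitals and up to 15 bases on either side of the outermost ones.
Egln3: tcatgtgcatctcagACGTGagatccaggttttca
P4ha2: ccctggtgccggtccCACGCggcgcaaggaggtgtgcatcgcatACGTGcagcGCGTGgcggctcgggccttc
Ero1a: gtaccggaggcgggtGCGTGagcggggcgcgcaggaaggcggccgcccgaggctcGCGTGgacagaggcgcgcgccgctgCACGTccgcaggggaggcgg
Bnip3: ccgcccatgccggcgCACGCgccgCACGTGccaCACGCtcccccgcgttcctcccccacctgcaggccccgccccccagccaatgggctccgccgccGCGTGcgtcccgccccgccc
Ankrd37: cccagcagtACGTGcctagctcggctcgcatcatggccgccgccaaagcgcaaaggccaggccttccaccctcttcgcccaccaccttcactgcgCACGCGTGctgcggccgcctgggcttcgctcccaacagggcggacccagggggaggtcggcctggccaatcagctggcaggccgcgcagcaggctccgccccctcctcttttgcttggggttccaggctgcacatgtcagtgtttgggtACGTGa
Pfkp: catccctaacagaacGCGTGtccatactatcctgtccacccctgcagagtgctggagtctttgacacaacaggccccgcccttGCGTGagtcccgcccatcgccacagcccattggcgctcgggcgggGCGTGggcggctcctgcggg
The Egln3 stretch lies at chr12:54204084-54204118 on the minus strand, positions -244 to -210 from the start, and holds 1 core. That of P4ha2 lies at chr11:54100802-54100874 on the plus strand, positions -122 to -50, with 3 cores, and that of Ero1a at chr14:45318616-45318715 on the minus strand, positions -143 to -44, with 3. That of Bnip3 lies at chr7:138909522-138909638 on the minus strand, positions -132 to -16, with 5 matches, of which the palindrome gives 2. That of Ankrd37 lies at chr8:45999851-46000100 on the minus strand, positions -250 to -1, with 4 matches, of which 2 overlap in cacgcgtg. Pfkp, the gene that was higher in MHCII-high, has 3 cores at chr13:6648775-6648922 on the minus strand, positions -151 to -4.

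Of the 43 genes, 39 had a window in the table and 34 of these (87.2%) held at least 1 core, beside 56.6% of the 15460 tested genes with a window and 43.8% of all 32851 windows. The share was 17 of 19 (89.5%) for oxygen-sensing genes and other HIF targets and 16 of 19 (84.2%) for glycolytic enzymes. A match is a description of letters and not a binding site.

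Glucose enters cells through the facilitative transporters. Slc2a1 (GLUT1), a HIF target and the main carrier of activated macrophages, had signals of 2.70, 2.61, 2.24 and 2.13 in MHCII-high cells, against 2.94, 2.99, 2.86 and 3.02 in MHCII-low cells. The groups did not overlap, and the change of -0.53 (-0.91 to -0.15) did not pass (adjusted p = 0.118). Slc2a3 (GLUT3), a carrier of high affinity, had signals of -3.29, -1.96, -2.41 and -2.90 in MHCII-high cells, against -4.16, -1.92, -2.32 and -2.07 in MHCII-low cells. It overlapped fully and was too variable for a narrow estimate, at -0.02 with an interval of -1.20 to 1.16 (adjusted p = 0.987).

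Hexokinases trap glucose as glucose 6-phosphate. Hk1, the housekeeping form, had signals of 4.84, 4.69, 4.58 and 5.08 in MHCII-high cells, against 4.64, 4.53, 4.76 and 4.99 in MHCII-low cells. These overlapped, with a change of 0.07 (-0.32 to 0.45, adjusted p = 0.866). A second, dimmer Hk1 probe gave -0.32, lower in MHCII-high without overlap. Still dimmer Hk1 probes past the filter gave 0.07 and 0.27. Hk2, the inducible form and a HIF target, had signals of 1.36, 1.19, 1.21 and 0.88 in MHCII-high cells, against 1.35, 0.94, 1.20 and 1.24 in MHCII-low cells. It too overlapped, at -0.02 (-0.39 to 0.34, adjusted p = 0.958). Hk3, the form of myeloid cells, had signals of 2.05, 1.84, 1.43 and 2.07 in MHCII-high cells, against 2.61, 2.34, 2.12 and 2.66 in MHCII-low cells. Its groups were apart by a narrow gap, and the change of -0.59 (-1.04 to -0.13) did not pass (adjusted p = 0.148). Hk3 minus Hk2 within arrays differed by -0.56 (exact permutation p = 0.0571). The isomerase Gpi1, the next enzyme of the pathway, was at -0.47 (-0.83 to -0.11, adjusted p = 0.138) with groups that did not overlap, and its 4 probes were all negative.

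Phosphofructokinase commits glucose to glycolysis, and 1 of its 3 subunit genes was higher in MHCII-high. Pfkp, the platelet-type subunit, had signals of 3.55, 3.54, 3.89 and 3.92 in MHCII-high cells, against 3.06, 2.71, 2.65 and 2.92 in MHCII-low cells. The groups did not overlap, and Pfkp was 1.85-fold higher in MHCII-high (1.43 to 2.41, log2 0.89 ± 0.17 SE, adjusted p = 0.0219). Its probe spans 6581718 to 6583872 on chromosome 13 of mm9, and all 5 Pfkp probes were higher, by 0.89 to 3.43. The dendritic cell markers were higher in the same arrays, and their part in the Pfkp result was not tested.

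Pfkl, the liver-type subunit, had signals of 3.14, 2.94, 2.64 and 2.81 in MHCII-high cells, against 3.63, 3.50, 3.12 and 3.45 in MHCII-low cells. These overlapped by the array pair MHCII-high 20435 and MHCII-low 20439, at -0.55 (-0.94 to -0.15, adjusted p = 0.118), and the other 2 Pfkl probes gave 0.26 and 1.04. Pfkm, the muscle-type subunit, had signals of -0.65, -0.61, -0.45 and -1.18 in MHCII-high cells, against 0.55, 0.10, -0.13 and -0.28 in MHCII-low cells. It did not overlap, and its change of -0.78 (-1.31 to -0.25) passed with normexp background correction (-0.64, adjusted p = 0.0476) and not with the processed signal (adjusted p = 0.103). Pfkp minus Pfkl within arrays averaged 0.84 ± 0.40 in MHCII-high and -0.59 ± 0.14 in MHCII-low (SD, n = 4 each), a difference of 1.44 (exact permutation p = 0.0286). Pfkfb3, which makes the activator fructose 2,6-bisphosphate, had signals of 1.49, 1.32, 1.0 and 1.05 in MHCII-high cells, against 1.80, 1.23, 1.05 and 1.25 in MHCII-low cells. Those overlapped, at -0.12 (-0.58 to 0.35, adjusted p = 0.795), and its relative Pfkfb4 was at -0.13.

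Pfkp lost its call with the slide row as a block (0.80, adjusted p = 0.0952), with 0.74 and 0.87 within rows 1 and 2, and without MHCII-high 20439 (0.0742), MHCII-high 20442 (0.0547), MHCII-low 20436 (0.0556) or MHCII-low 20439 (0.0622).

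**Figure D4:**
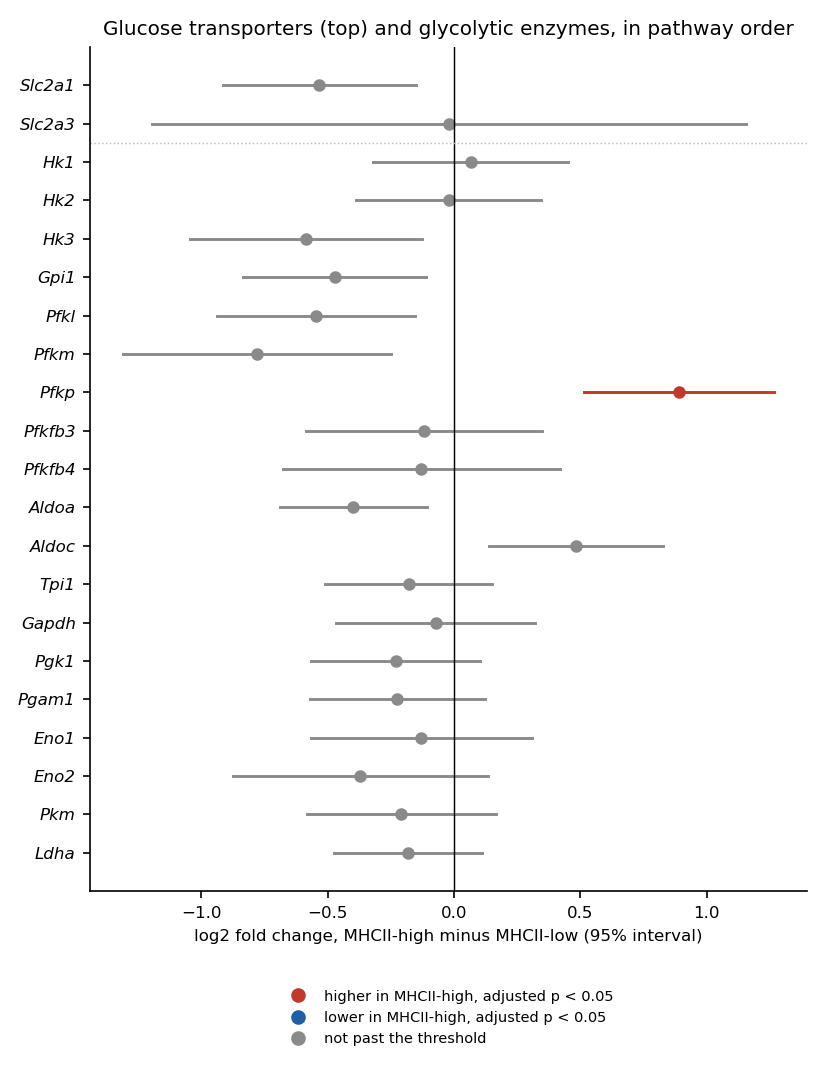
Log2 fold change, MHCII-high minus MHCII-low, of the 2 glucose transporters (above the dotted line) and the 19 glycolytic enzymes in pathway order, as points with 95% intervals from limma on 4 arrays a group. Pfkp, at 0.89, is the 1 gene past an adjusted p of 0.05, and the enzymes from Tpi1 to Ldha lie between -0.37 and -0.07.

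Aldolases split the phosphorylated sugar. Aldoc, the brain-type form, had signals of 2.51, 2.40, 2.47 and 2.44 in MHCII-high cells, against 1.98, 1.68, 2.24 and 1.98 in MHCII-low cells. It did not overlap, and all 3 of its probes were higher, but the change of 0.48 (0.14 to 0.83) did not pass (adjusted p = 0.116). Aldoa, the main form of most tissues, was at -0.40 (-0.69 to -0.11, adjusted p = 0.125), also without overlap. Aldoc minus Aldoa within arrays differed by 0.88 between the groups (exact permutation p = 0.0286).

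The later steps of the pathway yield ATP, and none of the members that act there passed. Gapdh, the dehydrogenase often used as a reference gene, had signals of 6.36, 6.12, 6.11 and 6.58 in MHCII-high cells, against 6.21, 6.36, 6.22 and 6.65 in MHCII-low cells. The arrays of both groups interleave, at -0.07 (-0.47 to 0.32, adjusted p = 0.858). Its 7 probes ran over -0.42 to 0.02, and those at -0.28 and -0.42 were lower in MHCII-high without overlap. Pgk1, the first ATP-forming step and a textbook HIF-1 target, had signals of 4.57, 4.41, 4.67 and 4.81 in MHCII-high cells, against 4.80, 4.67, 4.92 and 4.98 in MHCII-low cells. It overlapped, at -0.23 (-0.57 to 0.10, adjusted p = 0.433). A second, dimmer Pgk1 probe gave -0.48, with MHCII-high the lower and no overlap, so the overlap of this gene depends on the probe. Pkm, the pyruvate kinase, had signals of 5.02, 4.60, 4.56 and 4.68 in MHCII-high cells, against 4.98, 5.14, 4.72 and 4.87 in MHCII-low cells. It overlapped as well, at -0.21 (-0.58 to 0.16, adjusted p = 0.532). The dimmest Pkm probe gave 0.88, higher in MHCII-high without overlap, and the other Pkm probes were negative. Ldha, which turns pyruvate to lactate and is a HIF-1 target, had signals of 5.52, 5.30, 5.24 and 5.33 in MHCII-high cells, against 5.58, 5.60, 5.47 and 5.47 in MHCII-low cells. The highest MHCII-high array exceeded the lowest MHCII-low array, and the change was -0.18 (-0.48 to 0.11, adjusted p = 0.484), so a fall of more than 1.39-fold lies outside its interval. The other 4 were Tpi1 at -0.18, Pgam1 at -0.22, Eno1 at -0.13 and Eno2 at -0.37, none past the threshold. The dimmest probe gave 0.40 for Tpi1 and 0.61 for Eno1, while the other probes of these genes were negative. Gapdh, Pgk1, Eno1, Pkm and Ldha have processed copies in the mouse genome, and cross-hybridisation of their probes was not tested.

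For the 19 enzymes together, the array means were 3.40, 3.25, 3.24 and 3.28 in MHCII-high, against 3.54, 3.40, 3.39 and 3.52 in MHCII-low. MHCII-high 20435 lay above MHCII-low 20436 and 20439, so the groups overlapped, but at each label number MHCII-high was the lower. By label number 10 of the 19 enzymes were lower in MHCII-high in 4 of 4 numbers and 2 higher, beside 4149 lower and 4288 higher of all 27999 genes. For 4 of these lower enzymes and the 2 higher ones the groups did not overlap, so any matching of arrays gives this. Of the 19 changes 16 were negative, beside 49.3% of all genes. With the mean of all probes of a gene, Pfkl was at 0.25, Pkm at 0.12 and Eno1 at 0.05. No enzyme moved from positive to negative in that setting, so the count of negative changes depends on the probe.

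For pairs of related genes the change of 1 against the other was compared within arrays, which does not depend on the scaling of an array. Of 12 pairs, 11 could be tested, and 6 reached the smallest p that 4 against 4 arrays allow, 0.0286, with a Benjamini-Hochberg value of 0.0524 over the 11 pairs, so 0 passed 0.05. The 6 were Epas1 against Hif1a, Egln3 against Egln1, P4ha2 against P4ha1, Bnip3l against Bnip3, Pfkp against Pfkl and Aldoc against Aldoa. With the mean of all probes of a gene, P4ha2 against P4ha1 and Bnip3l against Bnip3 no longer reached it. Pairs that did not reach it included Hk1 against Hk2, at 0.09, Pfkfb4 against Pfkfb3, at -0.01, and Eno2 against Eno1, at -0.24.

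Other genes of the same pathways were read from lists kept apart from the 43. Of 31 tested genes that also respond to hypoxia, 5 were lower in MHCII-high (16.1%) and 1 higher (3.23%). Among all genes 2.25% were lower and 2.7% higher. The median log2 change of the 31 was -0.53. Selenbp1, a selenium-binding protein, was at -1.25 (adjusted p = 0.0284), the inducible nitric oxide synthase Nos2 at -1.14 (0.0323) and the adenylate kinase Ak4 at -0.90 (0.0326). Pgf, placental growth factor, was at 0.76 (0.0284). Vegfa, the angiogenic factor most often read as a hypoxia target, had signals of 4.02, 4.17, 3.96 and 3.99 in MHCII-high cells, against 4.17, 4.09, 4.20 and 4.27 in MHCII-low cells. Vegfa overlapped, at -0.15 (-0.44 to 0.14, adjusted p = 0.556), and was chosen for mention after its values were seen. With the slide row as a block, or without MHCII-high 20439, 0 of the 31 passed in limma, and the median was -0.27 without MHCII-high 20442 and -0.28 and -0.30 within slide rows 1 and 2.

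Further glycolytic genes and branches off glycolysis were read by list, beside 4.94% of all genes called. The called share was 7.14% in other glucose and pyruvate metabolism and 5% in the tricarboxylic acid cycle, both near that of all genes. It was 20% in glycogen metabolism and 0% in the pentose phosphate pathway, which are short lists. Of 28 other genes of glucose and pyruvate metabolism, Eno3, the muscle-type enolase, was higher in MHCII-high by 1.05 (adjusted p = 0.00896) and Pdk2, a second pyruvate dehydrogenase kinase, was lower at -0.82 (0.0462), with a median of -0.10, or -0.20 without MHCII-low 20442 and -0.15 without MHCII-low 20439. Among 10 genes of glycogen metabolism, Gbe1, the branching enzyme, was at -1.79 (0.00985) and Pygl, the liver-type glycogen phosphorylase, at -0.89 (0.046), with a median of -0.40. With the slide row as a block 0 of these 10 passed. Of 7 genes of the pentose phosphate pathway 0 passed in limma, 2 had an unadjusted p under 0.05 and the median was -0.01. That median ran from -0.42 within slide row 2 to 0.17 without MHCII-high 20439, so its direction is not settled. Among 20 genes assigned to the tricarboxylic acid cycle, Idh1, the cytosolic isocitrate dehydrogenase, was at -1.83 (0.00409) and the median was -0.11, or -0.04 without MHCII-high 20442 or without MHCII-low 20442, with 1 gene past the threshold in each of the 8 fits that left out an array.

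**Figure D5:**
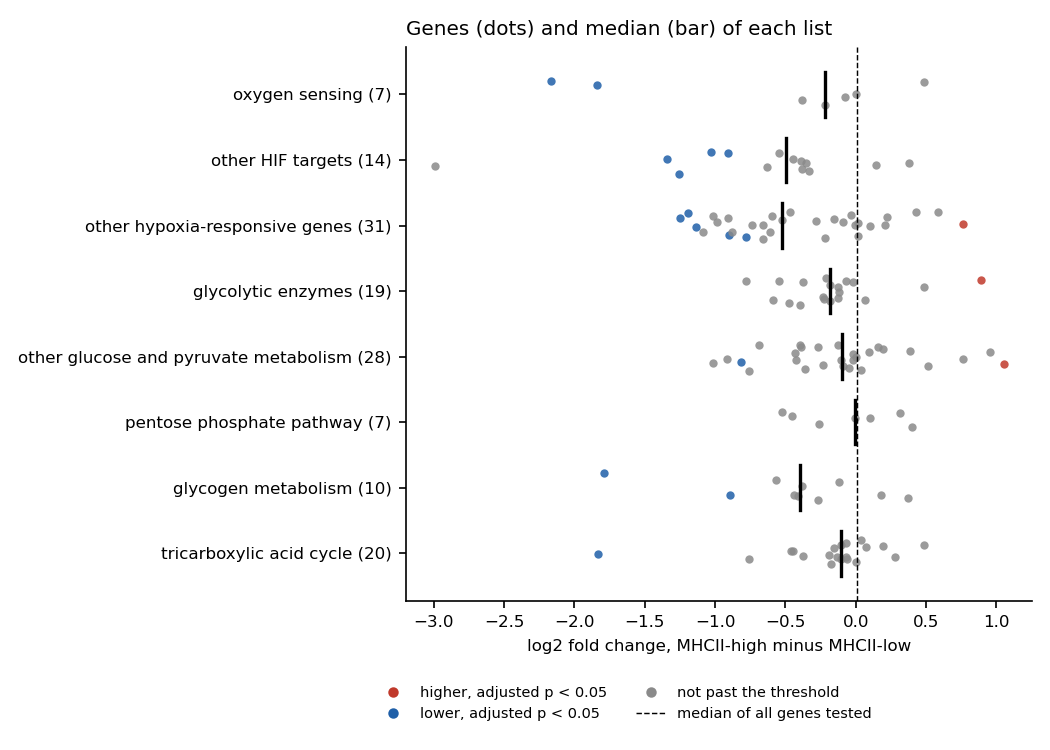
Log2 fold change, MHCII-high minus MHCII-low, of every tested gene (dot) in each list, with the list median as a black bar and the median of all genes, 0.01, as a dashed line. The number of genes tested stands beside each list. Medians run from -0.53 in the other hypoxia-responsive genes to -0.01 in the pentose phosphate pathway, where the direction depends on the setting.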

How the data were processed

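The deposited scanner files give spot intensity in 1 colour from Agilent Feature Extraction 11.5.1.1, background-subtracted and detrended, with surrogates for dim spots, per the file headers. The deposited series table holds log2 values; how the authors made it is not given in the sources used here, and it correlated at 0.999998 or more, over probes, with a quantile normalization of these signals. It served as an alternative.

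Controls and outlier spots were left out, log2 signals were taken relative to the array's 75th percentile, spots of a probe were averaged, and a probe was kept if at least 4 of 8 arrays had it well above background. The brightest probe stood for a gene. Groups (4 arrays each, by title) were compared with limma 3.58.1 in R 4.3.3, two-sided, with Benjamini-Hochberg adjustment over 27999 genes. Of these, 1384 passed (4.94%). The script was tested on simulated data.

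All 43 members are accounted for. Values per array are given for members past the threshold, the 4 largest other changes in each role and 17 genes chosen by name. Of the other pathway lists, up to 4 called genes per list and direction are named with their change. Vegfa, which was not called, also has values per array. A called gene of the other hypoxia-responsive list and a list of markers of another cell type are not reported here. Members and lists were chosen with earlier results of these data known. Within-row values were added after seeing the data. Probe coordinates are those of the files (mm9), without exon annotation, and promoter windows are RefSeq's on GRCm38.p6.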

Additional observations from a re-analysis of the deposited data

Results flagged for a closer look

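Egln2, the prolyl hydroxylase PHD1, had 1 array far from the others of its group. Its log2 signal was 3.66 on MHCII-high 20439, against 3.96 to 3.99 on the other 3 MHCII-high arrays. Of 84 gene and group combinations examined this way, 1 stood apart. Chance alone gives about 1 in 20 combinations, so 1 of 84 is not more than chance gives.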

How the results depend on the processing

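Of all genes, 1384 passed, 465 with slide row as the block and 809 with label number as a replicate block. Leaving out 1 array gave 555 (without MHCII-high 20439) to 1157. Of the 43 genes, 7 passed, 2 with either block (Egln3 and P4ha2), and 2 (without MHCII-high 20439) to 7 with 1 array left out. The labels do not say what the numbers mark. Deviations of same-numbered arrays correlated at 0.189, 0.128, 0.210 and 0.0836, of which the last is under 0.1, and the numbers were not treated as pairs. Each MHCII-high array correlated best with its own number, a hint from the data and not from the design. With the replicate block Epas1 (adjusted p = 0.0653), Ero1a (0.0538), Bnip3 (0.0617), Ankrd37 (0.0585) and Pfkp (0.0765) lost their calls. The median of the 2 glucose transporters was 0.26 within slide row 1 and -0.73 within row 2, against -0.28 over both. Under all 19 alternatives the median of the oxygen-sensing genes and other HIF targets lay between -0.54 and -0.36 and that of the glycolytic enzymes between -0.29 and -0.15. No member past the threshold changed sign. P4ha2 lost its call with the mean of its probes. Ankrd37 lost its call with no filter on dim probes (adjusted p = 0.0641). No pair of related genes passed under any alternative run. A sign-flip test over the 4 numbers cannot go below 0.125.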
